A study of Mus musculus with 52 samples.

Results

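The genes described here are 9 mouse genes that make up the core of the MHC class I antigen presentation pathway: H2-K1, H2-D1, B2m, Tap1, Tap2, Tapbp, Psmb8, Psmb9 and Nlrc5. They were chosen by gene symbol, and all 9 were found among the 24116 genes of the expression table. Of these 9 genes, 8 passed the filter on low values and were among the 12443 genes tested, and Nlrc5 did not pass it.

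The organoids were grown from single cells of the intestine of wild type male C57BL/6 littermates aged 8 weeks, with no genetic change in any group. The 13 groups were 10 µM atRA (all-trans retinoic acid, which activates retinoic acid receptors) on days 1, 3, 4 and 5, an antagonist of the retinoid X receptors (RXRi, 5 µM) on the same 4 days, and the vehicle DMSO on those days and on day 0. Compounds were added on day 0 and again on day 3. On day 3 every group also lost from its medium CHIR99021 (a GSK3 inhibitor), Y-27632 (a ROCK inhibitor) and medium conditioned with Wnt3a. Each group held 2 cultures with 2 libraries each, taking the first number of each sample title as the culture. The titles write this number after the word prep, and the sample labels do not say what it counts. Cells of several wells were pooled for a library. With 2 cultures a group, p-values measure the spread between these cultures only.

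MHC class I molecules show peptides from inside the cell to CD8 T cells. Proteasomes cut proteins into peptides, and the immunoproteasome subunits change where they cut. The TAP transporter moves peptides into the endoplasmic reticulum, tapasin holds TAP and the empty class I molecule together, and the heavy chain reaches the cell surface when joined to β2-microglobulin and a peptide. Interferon-γ raises most of these genes in many cell types, in part through NLRC5, and intestinal epithelial cells are known to carry class I molecules.

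The 51 libraries held 12895669 to 26206030 reads, with 14387 to 15800 genes above 0. A further library of day 1 DMSO, culture 1, held 12443 reads and was left out, so that group had 3 libraries. The labelled tissue was checked against its markers: all 10 epithelial markers were at 1 RPKM (reads scaled to gene length in kilobases and to library size) or more in every library. Of 11 T and B cell markers, 10 stayed below 1 RPKM in every library, Cd4 and Cd8a were at 0 throughout, and the sum of the list was 0.0139 to 1.68 RPKM. Of 11 macrophage and dendritic cell markers, 9 stayed below 1 RPKM in every library and the sum was 3.87 to 11.4 RPKM, most of it Cd68 (at most 7.63 RPKM) and Itgam (at most 3.61 RPKM). All 8 fibroblast markers stayed below 1 RPKM in every library. In pooled organoids, fewer cells of a type and less RNA per cell cannot be told apart.

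Tap1, Tap2, Tapbp, Psmb8, Psmb9, H2-K1 and H2-D1 lie on chromosome 17, B2m on chromosome 2 and Nlrc5 on chromosome 8. The promoter table (RefSeq, GRCm38.p6, 250 bases before to 50 bases after each annotated start) held windows for 7 of the 9 genes. The windows of both heavy chains and of B2m are printed because these 3 genes moved in different directions under RXRi, and that of Tap1 because it is shared with Psmb9. In each, 5′ to 3′ on the gene's strand, capitals mark matches on either strand to 4 motifs: AGGTCA, the hexamer bound by nuclear receptors; GGGNNTTCC, bound by NF-kB; GAAANNGAA, bound by interferon regulatory factors; and the Y box CCAAT. No 2 matches overlap.
H2-K1, chr17:34000284-34000583, minus strand: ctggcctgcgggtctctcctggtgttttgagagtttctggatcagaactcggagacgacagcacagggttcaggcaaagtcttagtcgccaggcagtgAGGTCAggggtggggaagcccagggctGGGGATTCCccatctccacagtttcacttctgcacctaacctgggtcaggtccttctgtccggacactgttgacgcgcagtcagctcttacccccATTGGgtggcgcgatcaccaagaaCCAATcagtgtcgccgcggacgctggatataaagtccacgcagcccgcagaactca
H2-D1, chr17:35262844-35263143, plus strand: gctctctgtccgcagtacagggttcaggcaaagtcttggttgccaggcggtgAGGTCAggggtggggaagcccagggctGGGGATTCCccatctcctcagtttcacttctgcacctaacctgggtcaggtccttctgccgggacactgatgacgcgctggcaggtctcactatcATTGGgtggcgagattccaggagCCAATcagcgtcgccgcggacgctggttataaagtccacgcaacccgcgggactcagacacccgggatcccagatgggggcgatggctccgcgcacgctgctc
B2m, chr2:122147437-122147736, plus strand: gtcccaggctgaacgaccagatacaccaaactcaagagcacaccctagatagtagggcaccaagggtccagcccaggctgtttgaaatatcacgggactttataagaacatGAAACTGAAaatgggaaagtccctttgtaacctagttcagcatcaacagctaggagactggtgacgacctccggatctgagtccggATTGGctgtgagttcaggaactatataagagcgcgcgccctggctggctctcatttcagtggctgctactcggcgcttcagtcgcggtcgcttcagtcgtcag
Tap1, chr17:34187306-34187605, plus strand: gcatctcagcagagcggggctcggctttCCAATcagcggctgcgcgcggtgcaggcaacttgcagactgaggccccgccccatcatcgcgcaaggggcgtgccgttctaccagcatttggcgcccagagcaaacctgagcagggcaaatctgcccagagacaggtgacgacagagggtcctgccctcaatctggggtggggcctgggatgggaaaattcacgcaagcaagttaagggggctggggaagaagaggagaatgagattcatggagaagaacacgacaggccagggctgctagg

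The heavy chain windows held the same 4 matches in the same order: AGGTCA, GGGGATTCC and 2 Y boxes, 1 of them on each strand. AGGTCA and GGGGATTCC lay in a run of 47 bases that is identical in both windows. For H2-K1 the table lists a second start upstream, whose window holds the same matches. B2m held GAAACTGAA and a Y box, and AGGTCA was not among the letters of its window. The Tap1 window overlaps that of Psmb9, which is read the other way, by 275 bases, and the 2 annotated starts are 226 bases apart. They share 1 Y box. The Tapbp window held 2 Y boxes, and none of the 4 motifs was among the letters of the Psmb8 window. Among 32851 promoter windows of this length, 16.3% held AGGTCA, 5.82% GGGNNTTCC, 8.56% GAAANNGAA and 37.4% CCAAT. As background, mouse RXRβ was first cloned through its binding to the region II element of class I promoters. Only these letters were searched, so a window with no match may still hold another form of the same element. A match of letters shows no binding, and no binding was measured here.

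**Figure D1:**
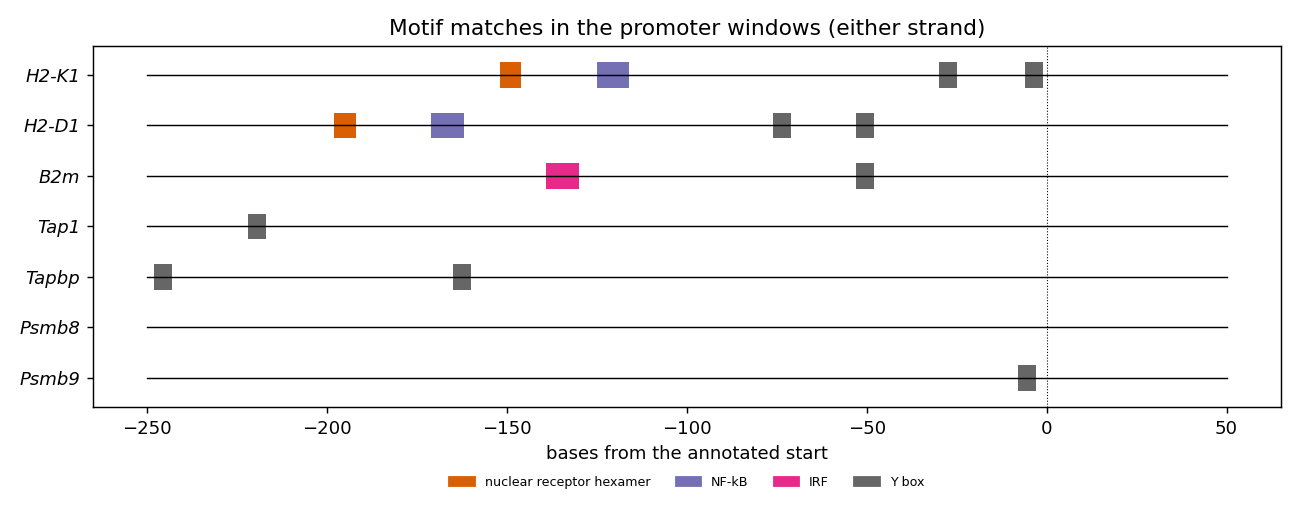
Motif matches in the promoter windows of the 7 genes that the table holds, by distance in bases from the annotated start (for H2-K1 the downstream start). Boxes mark matches on either strand, coloured by motif, and other forms of these elements were not searched. H2-K1 and H2-D1 carry the nuclear receptor hexamer, the NF-kB motif and 2 Y boxes in the same order.

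Averaged over days 1, 3, 4 and 5, the pathway did not move as 1 unit under RXRi: both heavy chains and tapasin were higher than in DMSO organoids, while B2m and both immunoproteasome subunits were lower. On single days only H2-D1 and B2m were called every time. Under atRA 6 of the 8 tested genes were called higher than in DMSO over the same mean and 0 lower, against 7.98% and 15% of all genes. On days 1 and 3 alone 0 were called, and the calls of days 4 and 5 were lost with only the groups compared in the fit. In DMSO organoids B2m rose on days 4 and 5, and H2-D1 rose on day 1. Fold changes are differences of log2(RPKM + 1) with their standard error from limma over all 13 groups, and a call is a Benjamini-Hochberg adjusted p below 0.05 over all genes tested.

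Averaged over days 1 to 5, RXRi against DMSO called 3 of the 8 genes higher and 3 lower, where 73% of all genes tested were called. The members' median change was 0.11 and that of all genes was -0.07. By day, RXRi called 1 higher and 2 lower on day 1 (20.4% of all genes called), 3 higher and 1 lower on day 3 (43.9%), 4 higher and 1 lower on day 4 (59%), and 4 higher and 3 lower on day 5 (63.8%). With so many genes called, the number of members called says little about them, and the values per gene follow. Without DMSO culture 2 or RXRi culture 1, only H2-D1 was called on day 1.

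Averaged over the same days, atRA against DMSO called 6 higher and 0 lower, where 22.9% of all genes were called. The members' median change was 0.27 and that of all genes was -0.04. On day 1 (3.46% of all genes called) and day 3 (8.68%) limma called 0 of the 8 genes, also 0 at an unadjusted p below 0.05, and limma-voom on reads recovered from the RPKM called 0 as well. On day 4 atRA called 5 higher (10.9%) and on day 5 it called 2 higher (5.03%), with 0 lower on either day. All 5 calls of day 4 were lost without DMSO culture 1 or without atRA culture 2, and without DMSO culture 1 or atRA culture 2 of day 5 the 2 calls of that day fell to 1, while without atRA culture 1 there were 4. With only the groups compared in the fit, 0 calls were left on either day (adjusted p = 0.14 to 0.20 on day 4, and 0.89 for H2-D1 and 0.97 for H2-K1 on day 5). The DMSO libraries are shared by the atRA and RXRi comparisons of a day.

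In DMSO organoids, day 1 against day 0 called 1 gene higher and 2 lower (61.2% of all genes called), day 3 against day 1 called 1 lower (12.7%), day 4 against day 3 called 3 higher (54.9%) and day 5 against day 4 called 1 higher (3.44%). Without day 0 culture 2 or day 1 culture 1, the first of these steps had 1 call, and without day 3 culture 1 or day 4 culture 2 so had day 4 against day 3. Day 5 against day 0 called 2 higher (69.8%), 4 without the first library of day 5 culture 1 and 5 with the culture as a replicate block, which added H2-K1, Tapbp and Psmb9 (adjusted p = 0.048, 0.041 and 0.048). The median over all genes was -0.31 for day 5 against day 0, -0.12 for atRA and -0.13 for RXRi on day 4, and -0.10 for DMSO day 4 against day 3, so a member at 0 in these stood above the median gene. With median-of-ratios scaling, which centres the genes (median 0.02 in this comparison), 7 members were called higher on day 5 against day 0. The share of all genes called under that scaling is not given here, so this count is not read as a result about the members.

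**Figure D2:**
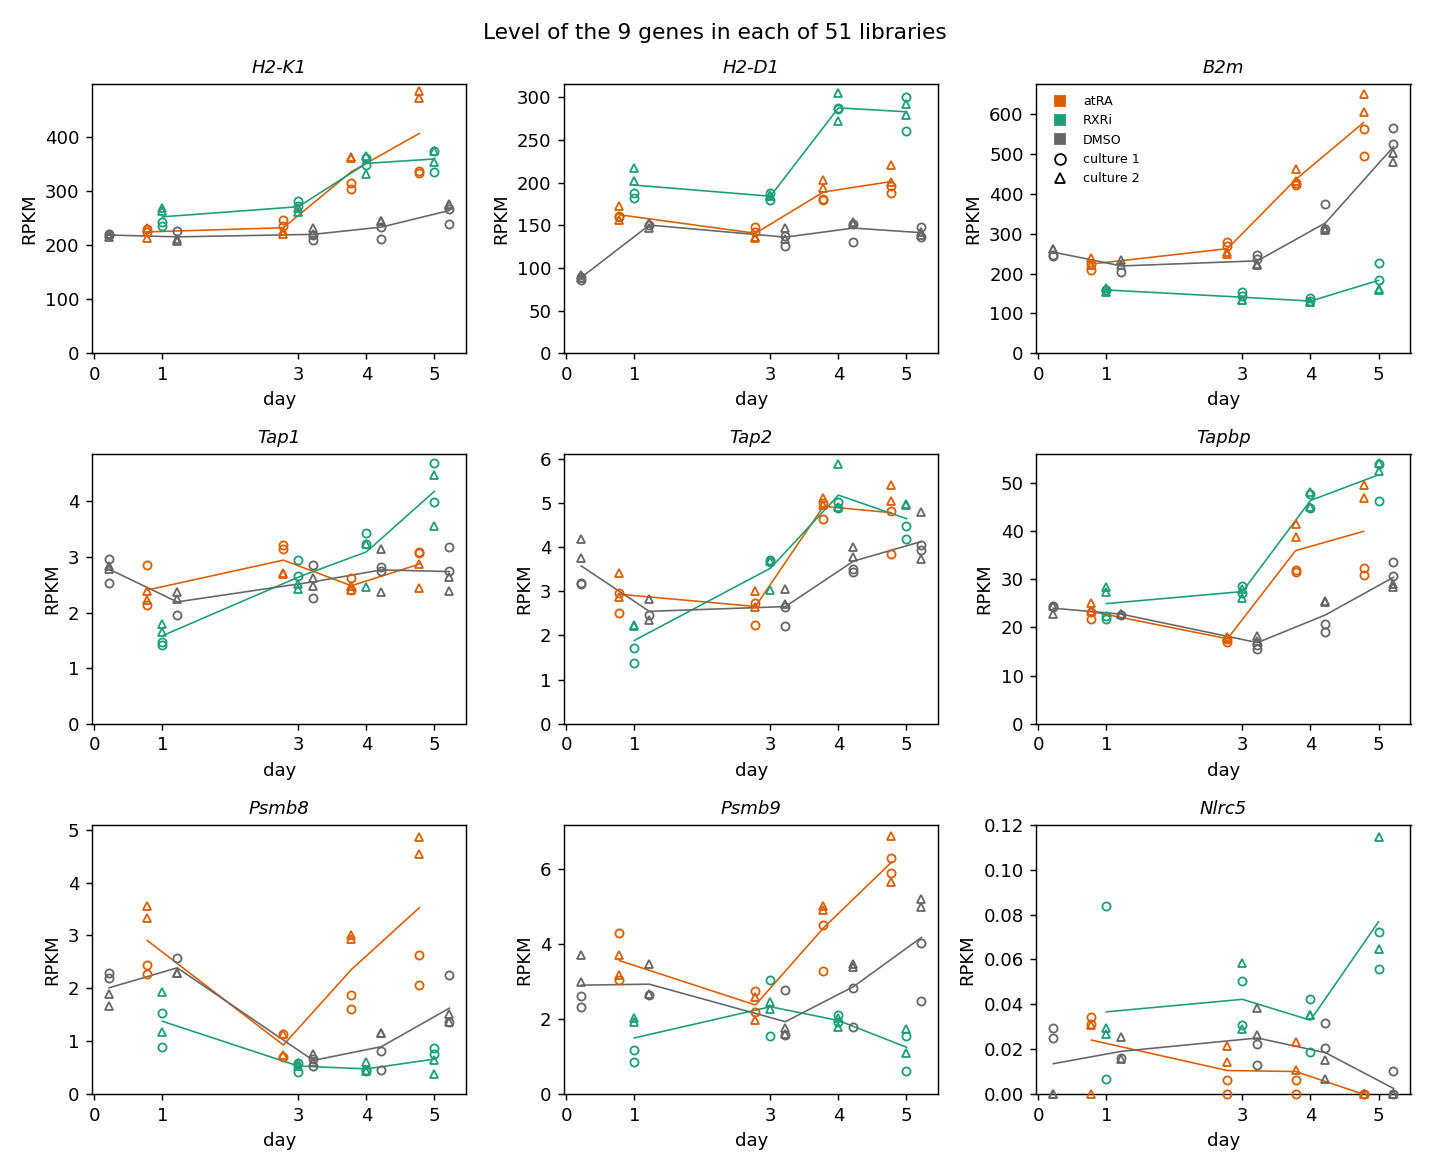
RPKM of each of the 9 genes (y axis, from 0, its own scale per gene) by day (x axis) in 51 libraries. Points are libraries (circles culture 1, triangles culture 2) and lines join the means over libraries of atRA, RXRi and DMSO. B2m under RXRi stays between 127 and 227 RPKM, and H2-D1 under RXRi reaches 305 RPKM.

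H2-K1 and H2-D1 encode the classical class I heavy chains of this strain (H2-K1 at chromosome 17, 33996012 to 34000619, and H2-D1 at 35263094 to 35267497). Both were abundant: over the 51 libraries H2-K1 lay between 209 and 486 RPKM and H2-D1 between 86.1 and 305 RPKM. On day 5, H2-D1 stood at 260, 301, 279 and 293 RPKM in RXRi libraries, against 137, 148, 143 and 138 RPKM in DMSO libraries. The groups were far apart, and the log2 difference was 1.00 ± 0.08 (adjusted p = 5.6e-09). On day 4 it was 286, 287, 305 and 272 RPKM under RXRi and 130, 151, 152 and 154 RPKM under DMSO, a difference of 0.97 ± 0.08 (adjusted p = 1.1e-08). The RXRi difference was already 0.38 ± 0.08 on day 1 (adjusted p = 0.0017) and 0.43 ± 0.08 on day 3 (adjusted p = 0.00025). The day 5 difference exceeded that of day 1 by 0.61 ± 0.11 (adjusted p = 0.00026).

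H2-K1 changed less under RXRi. On day 5 it was 336, 375, 354 and 375 RPKM in RXRi libraries, against 239, 267, 275 and 277 RPKM in DMSO libraries. All RXRi libraries lay above all DMSO libraries, with a log2 difference of 0.44 ± 0.12 (adjusted p = 0.0044). Day 4 gave 0.59 ± 0.12 (adjusted p = 0.00053). On day 3 the 4 RXRi libraries (262 to 283 RPKM) also lay above the DMSO libraries (210 to 232 RPKM), but the difference of 0.30 ± 0.12 was not called (adjusted p = 0.056). With the culture as a replicate block it was called (adjusted p = 0.044). The level of H2-K1 over H2-D1, both per kilobase, was 1.27 ± 0.01 in RXRi organoids on day 5, against 1.87 ± 0.13 in DMSO organoids (SD, n = 2 cultures each).

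Under atRA both heavy chains were higher late. On day 5, H2-D1 was 188, 196, 201 and 221 RPKM in atRA libraries, against 137, 148, 143 and 138 RPKM in DMSO libraries, with no overlap (0.51 ± 0.08, adjusted p = 0.00069, or 0.89 with only these 2 groups in the fit). H2-K1 on that day was 338 and 334 RPKM in atRA culture 1 and 472 and 486 RPKM in atRA culture 2, against 239, 267, 275 and 277 RPKM in DMSO libraries. Both atRA cultures lay above DMSO but apart from each other, and the difference of 0.60 ± 0.12 (adjusted p = 0.0068) was 0.35 without atRA culture 2 (adjusted p = 0.050) and 0.54 without DMSO culture 1 (adjusted p = 0.088). On day 4 the differences were 0.36 ± 0.08 for H2-D1 (adjusted p = 0.0058) and 0.52 ± 0.12 for H2-K1 (adjusted p = 0.012). Neither held without DMSO culture 1 (0.30 and 0.45, adjusted p = 0.080 and 0.10) or without atRA culture 2 (0.30 and 0.41, adjusted p = 0.10 and 0.16).

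In DMSO organoids H2-D1 was 151, 147 and 153 RPKM on day 1, against 89.2, 86.1, 87.7 and 92.3 RPKM on day 0, a rise of 0.75 ± 0.08 (adjusted p = 4.1e-07). No later step from day to day was called. H2-K1 was level over the same step, at 226, 209 and 212 RPKM on day 1 and 219, 220, 216 and 221 RPKM on day 0 (-0.01 ± 0.12, adjusted p = 0.96). In the order of the 13 groups by mean, H2-D1 ran from DMSO on day 0 (88.9 RPKM) to RXRi on day 4 (288 RPKM), and libraries overlapped in 8 of the 12 neighbouring pairs. H2-K1 ran from DMSO on day 1 (218 RPKM) to atRA on day 5 (407 RPKM), with overlap in 11 of 12 pairs. Of the stretches of 50 bases in the annotated transcripts (GENCODE), 8.79% of those of H2-K1 and 14.3% of those of H2-D1 also occur in other genes, led by H2-Q1 in the case of H2-D1. The rule for assigning reads of such stretches is unknown here, and these levels are uncertain to that extent.

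B2m encodes β2-microglobulin, the light chain shared by all class I molecules (chromosome 2, 122147687 to 122153082, overlapping Patl2). It moved opposite to the heavy chains under RXRi. On day 5 it was 185, 227, 161 and 158 RPKM in RXRi libraries, against 566, 524, 481 and 501 RPKM in DMSO libraries. The highest RXRi library lay far below the lowest DMSO library, with a log2 difference of -1.51 ± 0.11 (adjusted p = 3.6e-09). On day 4 it was 138, 130, 127 and 128 RPKM under RXRi and 311, 373, 308 and 315 RPKM under DMSO, a difference of -1.31 ± 0.11 (adjusted p = 3.1e-08). Day 3 gave -0.72 ± 0.11 (adjusted p = 7.6e-05).

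The day 1 values of B2m were 159, 158, 165 and 153 RPKM in RXRi libraries and 203, 220 and 233 RPKM in DMSO libraries. The groups did not overlap and differed by -0.43 ± 0.11 (adjusted p = 0.011). This call was lost without DMSO culture 2 (-0.36, adjusted p = 0.11), RXRi culture 1 (-0.43, adjusted p = 0.058) or RXRi culture 2 (-0.44, adjusted p = 0.062). The RXRi difference on day 5 exceeded that of day 1 by -1.08 ± 0.16 (adjusted p = 4.2e-05). The means of RXRi organoids were 159, 141, 131 and 183 RPKM on days 1, 3, 4 and 5. The means of DMSO organoids on those days were 215, 232, 327 and 518 RPKM.

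In DMSO organoids B2m rose by 0.49 ± 0.11 on day 4 against day 3 (adjusted p = 0.0015) and by 0.66 ± 0.11 on day 5 against day 4 (adjusted p = 0.0033, or 0.34 with only these 2 groups in the fit). Before that, every day 1 library lay below every day 0 library, and the difference of -0.24 ± 0.11 was not called (adjusted p = 0.076). Day 3 against day 1 was not called either (0.11 ± 0.11, adjusted p = 0.62). Day 5 against day 0 gave 1.02 ± 0.11 (adjusted p = 7.8e-07), with 566, 524, 481 and 501 RPKM on day 5 against 245, 247, 261 and 263 RPKM on day 0. Under atRA, B2m was 427, 421, 463 and 432 RPKM on day 4, against 311, 373, 308 and 315 RPKM under DMSO. These groups did not overlap and differed by 0.42 ± 0.11 (adjusted p = 0.026). That call was lost when any culture of either group was left out (0.35 to 0.48, adjusted p = 0.063 to 0.18) and without the first library of DMSO culture 1 (0.35, adjusted p = 0.065). On day 5 it was 563, 495, 650 and 606 RPKM under atRA and 566, 524, 481 and 501 RPKM under DMSO, which overlap (0.15 ± 0.11, 95% interval -0.08 to 0.39, adjusted p = 0.52). By mean, B2m ran from RXRi on day 4 (131 RPKM) to atRA on day 5 (579 RPKM). The 4 RXRi groups took the 4 lowest places, and libraries overlapped in 8 of the 12 neighbouring pairs.

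The level of B2m over the summed level of H2-K1 and H2-D1, all per kilobase, joined both changes. In RXRi organoids it was 0.35 ± 0.03, 0.31 ± 0.02, 0.20 ± 0.01 and 0.28 ± 0.05 on days 1, 3, 4 and 5. In atRA organoids it was 0.58 ± 0.03, 0.70 ± 0.01, 0.83 ± 0.05 and 0.96 ± 0.06 on the same days. In DMSO organoids it was 0.58 ± 0.06, 0.65 ± 0.07, 0.86 ± 0.11 and 1.28 ± 0.15 on those days and 0.82 ± 0.04 on day 0 (all SD, n = 2 cultures). The RXRi and DMSO libraries did not overlap on any of the 4 days. The ratio was not tested, and it is a ratio of RNA, not of protein.

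**Figure D3:**
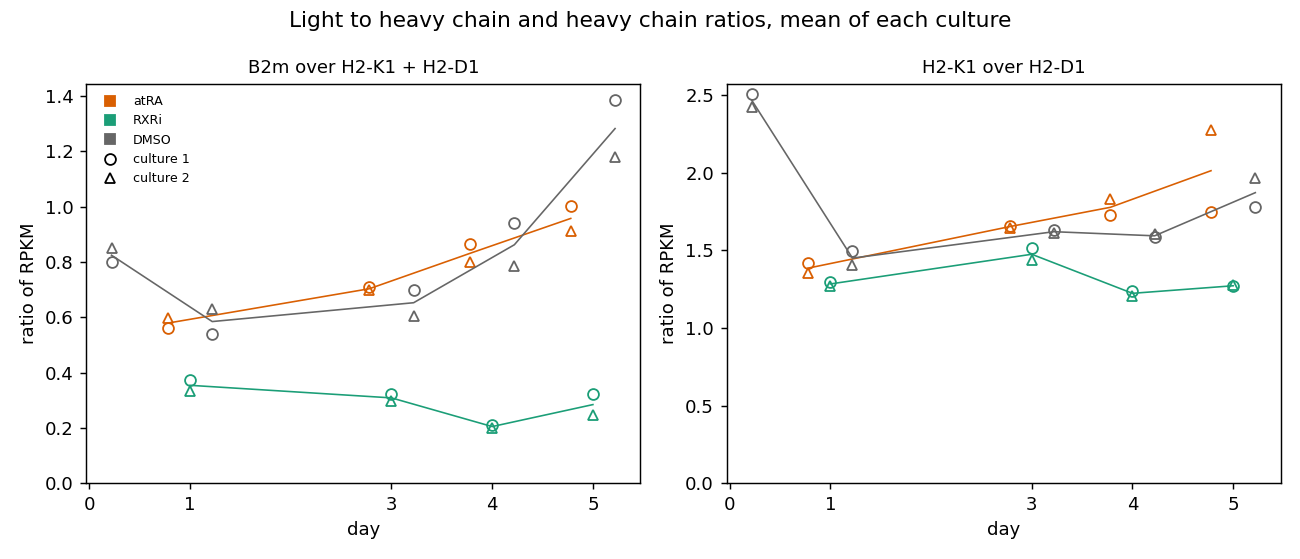
Ratio of RPKM (y axis) by day (x axis) for B2m over H2-K1 + H2-D1 (left) and H2-K1 over H2-D1 (right). Points are culture means (circles culture 1, triangles culture 2) and lines join the means of atRA, RXRi and DMSO. The light chain ratio lies between 0.20 and 0.37 under RXRi and reaches 1.39 in DMSO culture 1 on day 5.

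Tap1 and Tap2 encode the subunits of the peptide transporter (chromosome 17, 34187556 to 34197225 and 34204479 to 34216321). Both were low, at 1.42 to 4.69 RPKM and 1.38 to 5.88 RPKM over the 51 libraries. On day 5, Tap1 was 3.99, 4.69, 4.47 and 3.57 RPKM in RXRi libraries, against 2.75, 3.17, 2.64 and 2.38 RPKM in DMSO libraries. The groups did not overlap, with a difference of 0.47 ± 0.10 (adjusted p = 0.00048). On day 1 they were 1.42, 1.47, 1.64 and 1.79 RPKM under RXRi and 1.96, 2.24 and 2.38 RPKM under DMSO. The groups did not overlap, and the difference of -0.28 ± 0.10 was not called (adjusted p = 0.054), while with the culture as a replicate block it was (adjusted p = 0.043). The difference between day 5 and day 1 was 0.75 ± 0.14 (adjusted p = 0.00037). Over the mean of the 4 days Tap1 differed by 0.09 ± 0.05 (adjusted p = 0.13).

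Tap2 differed by 0.40 ± 0.12 on day 4 (adjusted p = 0.0097), with 5.02, 4.89, 5.88 and 4.91 RPKM in RXRi libraries and 3.44, 3.51, 4.01 and 3.76 RPKM in DMSO libraries. The groups did not overlap, and the call was lost without DMSO culture 1 (0.33, adjusted p = 0.072) or RXRi culture 2 (0.35, adjusted p = 0.070). The day 3 difference of 0.31 ± 0.12 was at the threshold (adjusted p = 0.049) and was lost when any culture of either group, or any of 4 single libraries, was left out (adjusted p = 0.051 to 0.27). It was also lost without the filter on low values (adjusted p = 0.067). On day 5 the Tap2 difference was 0.14 ± 0.12 (adjusted p = 0.33). With the replicate block Tap2 was also called on day 1, at -0.30 (adjusted p = 0.027), over the mean at 0.14 (0.012), and for day 5 minus day 1 at 0.44 (0.011). Under atRA the block added Tap2 on day 4, at 0.34 (adjusted p = 0.023), and over the mean at 0.17 (0.013). Tap1 under atRA differed by 0.05 ± 0.05 over the mean (95% interval -0.05 to 0.16, adjusted p = 0.49).

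In DMSO organoids Tap1 and Tap2 fell by 0.27 and 0.37 on day 1 against day 0 (adjusted p = 0.025 and 0.014). Both calls were lost without day 0 culture 2 (-0.26 and -0.25, adjusted p = 0.095 and 0.16) or day 1 culture 1 (-0.19 and -0.35, adjusted p = 0.20 and 0.072), and with median-of-ratios scaling (adjusted p = 0.092 and 0.059). The Tap1 call was also lost without day 0 culture 1 (-0.29, adjusted p = 0.068) or its second library (-0.23, adjusted p = 0.058). Tap2 then rose by 0.36 ± 0.12 on day 4 against day 3 (adjusted p = 0.019), which was lost without day 3 culture 1 (0.27, adjusted p = 0.15) or day 4 culture 2 (0.30, adjusted p = 0.11). The Tap1 order ran from RXRi on day 1 (1.58 RPKM) to RXRi on day 5 (4.18 RPKM). Tap2 ran from RXRi on day 1 (1.88 RPKM) to RXRi on day 4 (5.17 RPKM). Libraries overlapped in 10 and 11 of the 12 neighbouring pairs.

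Tapbp encodes tapasin, the bridge between the transporter and the empty class I molecule (chromosome 17, 33919478 to 33929290, overlapping Gm19412). Of its stretches of 50 bases, 21% also occur in other genes, Gm19412 first among them. At 15.5 to 54.0 RPKM it was far more abundant per kilobase than the transporter genes. On day 4 it was 47.6, 44.8, 48.0 and 44.9 RPKM in RXRi libraries, against 19.0, 20.6, 25.4 and 25.3 RPKM in DMSO libraries. The difference was 1.01 ± 0.16 (adjusted p = 3.6e-05) with no overlap. Day 5 gave 46.2, 53.9, 52.5 and 54.0 RPKM under RXRi and 30.6, 33.6, 28.5 and 28.9 RPKM under DMSO, a difference of 0.75 ± 0.16 (adjusted p = 0.00058). On day 3 it was 0.67 ± 0.16 (adjusted p = 0.0027) and on day 1 it was 0.12 ± 0.16 (adjusted p = 0.65).

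The RXRi difference for Tapbp was larger on day 5 than on day 1 by 0.63 ± 0.23 (adjusted p = 0.034). That call was lost without day 1 RXRi culture 1, either day 5 RXRi culture, either day 1 DMSO culture, day 5 DMSO culture 2 or the second library of day 5 RXRi culture 1 (0.47 to 0.67, adjusted p = 0.053 to 0.15). In all, day 5 minus day 1 of the RXRi difference called 3 members higher and 1 lower, where 41.3% of all genes were called. For atRA limma called 0 members there, with 1.15% of all genes called. At an unadjusted p below 0.05, 2 members were higher, and limma-voom also called 0. Without day 5 atRA culture 1 the call count was 2 (H2-K1 and H2-D1).

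Under atRA, Tapbp on day 4 was 31.5, 31.9, 38.8 and 41.5 RPKM, against 19.0, 20.6, 25.4 and 25.3 RPKM under DMSO. The groups did not overlap and differed by 0.65 ± 0.16 (adjusted p = 0.015), which was lost without DMSO culture 1 (0.48, adjusted p = 0.15) or atRA culture 2 (0.48, adjusted p = 0.19). The mean over days of 0.28 ± 0.08 (adjusted p = 0.019) was lost without the same cultures (0.23 in each case, adjusted p = 0.055 and 0.058). On day 5 the atRA cultures split, with 30.9 and 32.4 RPKM in culture 1 and 49.6 and 46.8 RPKM in culture 2, against 30.6, 33.6, 28.5 and 28.9 RPKM in DMSO libraries. Only culture 2 lay above DMSO, and the difference of 0.35 ± 0.16 was not called (adjusted p = 0.26). In DMSO organoids Tapbp rose by 0.39 ± 0.16 on day 4 against day 3 (adjusted p = 0.045). That was lost without day 3 culture 1 or 2, day 4 culture 2 or any of 3 single libraries (0.22 to 0.47, adjusted p = 0.053 to 0.33). By mean, Tapbp ran from DMSO on day 3 (16.8 RPKM) to RXRi on day 5 (51.6 RPKM), with overlap in 11 of 12 pairs.

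**Figure D4:**
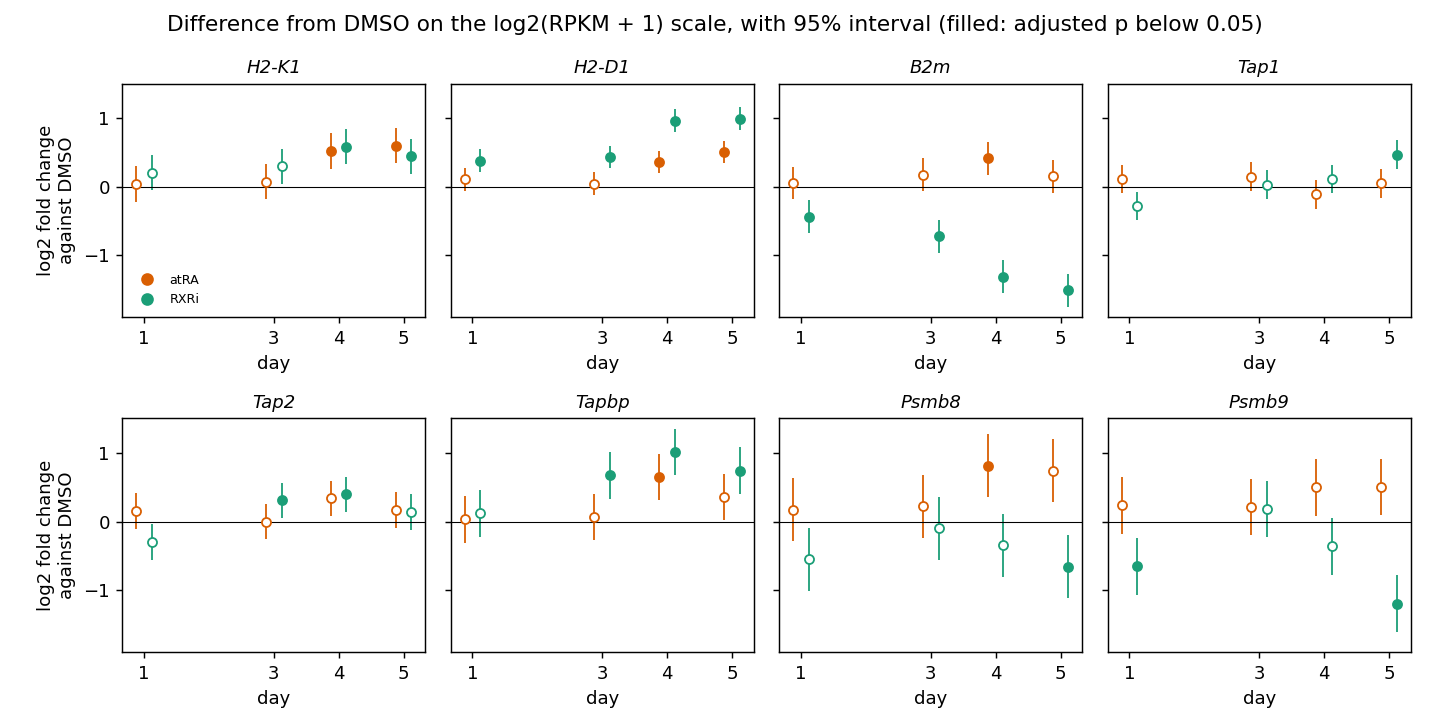
Difference of atRA (orange) and RXRi (green) from DMSO of the same day in log2(RPKM + 1) for the 8 genes tested, by day. Bars are 95% intervals from limma and filled points have an adjusted p below 0.05. Under RXRi, B2m goes down to -1.51 and H2-D1 up to 1.00 on day 5.

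Psmb8 and Psmb9 encode catalytic subunits that replace Psmb5 and Psmb6 in the immunoproteasome (chromosome 17, 34198195 to 34201454 and 34182030 to 34187330). Both were near the floor of detection, with 10 to 125 reads and 7 to 106 reads per library, and the log2(RPKM + 1) scale understates changes at this level. With a pseudocount of 0.1 RPKM the Psmb8 difference of RXRi from DMSO would be -1.20 on day 5 and -0.74 over the mean, and the step of DMSO day 3 against day 1 would be -1.79, with the calls kept. Psmb9 on day 5 was 0.63, 1.57, 1.09 and 1.73 RPKM in RXRi libraries, against 2.5, 4.04, 5.00 and 5.21 RPKM in DMSO libraries. The groups did not overlap (-1.20 ± 0.20, adjusted p = 4.3e-05). Psmb8 was 0.77, 0.87, 0.38 and 0.64 RPKM under RXRi and 1.36, 2.25, 1.52 and 1.37 RPKM under DMSO, also with no overlap (-0.65 ± 0.22, adjusted p = 0.014). The Psmb8 call was lost without DMSO culture 1 (-0.57, adjusted p = 0.079) or RXRi culture 2 (-0.52, adjusted p = 0.11).

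Over the mean of the 4 days RXRi differed from DMSO by -0.51 ± 0.10 for Psmb9 (adjusted p = 0.00017) and by -0.41 ± 0.11 for Psmb8 (adjusted p = 0.0026). On day 1 Psmb9 differed by -0.65 ± 0.20 (adjusted p = 0.025), which was lost without either DMSO culture (-0.73 and -0.58, adjusted p = 0.072 and 0.14) or RXRi culture 1 (-0.37, adjusted p = 0.30). With the replicate block 5 members were called on day 1. On days 3 and 4 neither gene was called, and on day 3 Psmb9 had the other sign, at 2.34 ± 0.05 RPKM in RXRi organoids and 1.94 ± 0.35 RPKM in DMSO organoids (SD, n = 2 cultures each; 0.18 ± 0.20, adjusted p = 0.48). Under atRA both were higher over the mean, Psmb8 by 0.49 ± 0.11 (adjusted p = 0.0032) and Psmb9 by 0.36 ± 0.10 (adjusted p = 0.012).

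On day 4 Psmb8 was 1.87, 1.62, 3.00 and 2.93 RPKM in atRA libraries, against 0.45, 0.82, 1.16 and 1.16 RPKM in DMSO libraries. Every atRA library lay above every DMSO library (0.82 ± 0.22, adjusted p = 0.024), and the call was lost without DMSO culture 1 (0.61, adjusted p = 0.18) or atRA culture 2 (0.55, adjusted p = 0.26). On day 5 it was 2.64, 2.06, 4.54 and 4.87 RPKM under atRA and 1.36, 2.25, 1.52 and 1.37 RPKM under DMSO, where atRA culture 1 overlaps DMSO (0.74 ± 0.22, adjusted p = 0.059). With the replicate block this was called (adjusted p = 0.037). In DMSO organoids Psmb8 fell by 1.07 on day 3 against day 1 (adjusted p = 0.0028), to 0.53, 0.66, 0.60 and 0.77 RPKM on day 3 against 2.58, 2.29 and 2.29 RPKM on day 1. By mean, Psmb8 ran from RXRi on day 4 (0.48 RPKM) to atRA on day 5 (3.53 RPKM), and all 12 neighbouring pairs overlapped. Psmb9 ran from RXRi on day 5 (1.25 RPKM) to atRA on day 5 (6.19 RPKM), with overlap in 11 pairs.

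Psmb9 and Tap1 start 226 bases apart on opposite strands and share most of the promoter window printed above. On day 5 under RXRi Psmb9 differed from DMSO by -1.20 and Tap1 by 0.47. In the annotated transcripts (GENCODE) 12.5% of the stretches of 50 bases of Psmb9 also occur elsewhere, all of them in Tap1. By the gene coordinates given above, Psmb9 and Tap1 do not overlap, and the annotation used for counting is unknown here. If it held the overlap and strand was not used, reads of that stretch cannot be told apart.

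The share of each immunoproteasome subunit in its pair with the constitutive subunit, in RPKM, was small for 2 of the 3 pairs. Psmb8 made up 0.30% to 5.15% of Psmb8 and Psmb5, and Psmb9 made up 0.41% to 4.92% of Psmb9 and Psmb6 over all libraries. Psmb10, the other inducible subunit, made up 16.5% ± 0.7 of Psmb10 and Psmb7 in RXRi organoids on day 5, against 54.0% ± 3.5 in DMSO organoids (SD, n = 2 cultures each). Its RPKM was 8.25 and 9.04 in the RXRi cultures and 35.3 and 51.3 in the DMSO cultures. The log2 difference over the mean of days was -1.63 ± 0.10 under RXRi (adjusted p = 2.0e-10) and 0.45 ± 0.10 under atRA (adjusted p = 0.0040).

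**Figure D5:**
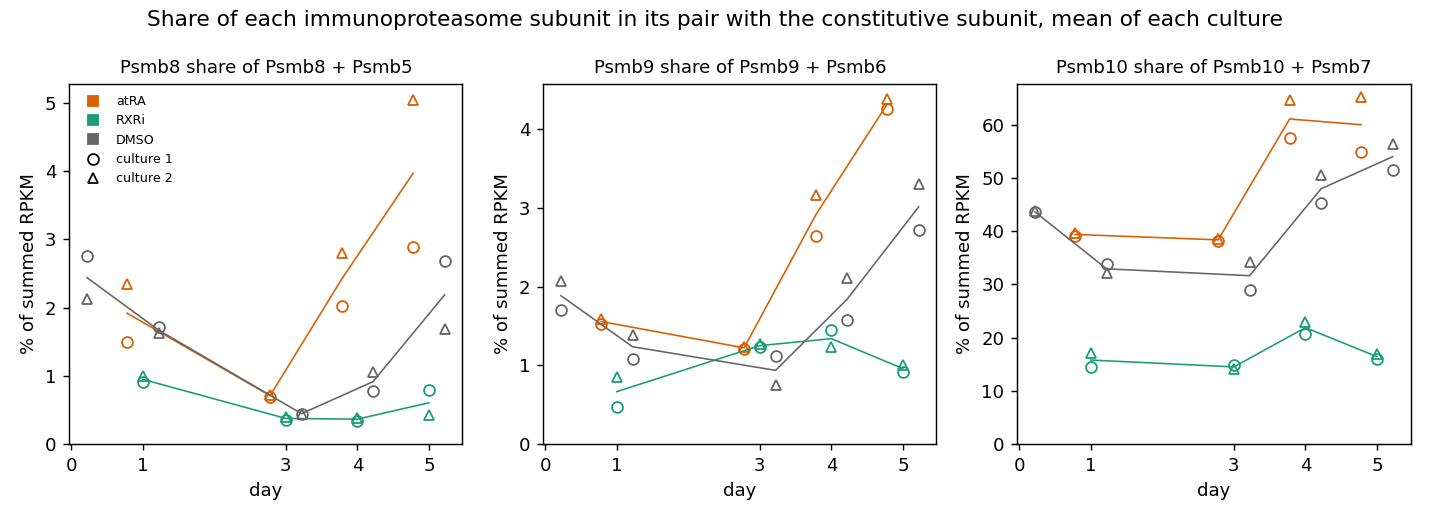
Share of Psmb8, Psmb9 and Psmb10 in the summed RPKM of each with its constitutive counterpart (y axis, %, its own scale per panel) by day (x axis). Points are culture means and lines join the means of atRA, RXRi and DMSO. On day 5 the Psmb10 share is 16.5% under RXRi and 54.0% under DMSO.

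Nlrc5 encodes the transactivator of class I genes (chromosome 8, 94434335 to 94527272, overlapping 3 annotated genes). It was almost undetected: 12 of the 51 libraries were at 0 and the highest held 19 reads (0.11 RPKM). Summed over the libraries of a group on day 5 there were 45 reads under RXRi, 0 under atRA and 1 under DMSO. These sums gave 0.0781 RPKM under RXRi (95% exact Poisson interval 0.0569 to 0.104), 0 under atRA, where a count of 0 allows up to 0.00545 RPKM (3 reads), and 0.00259 RPKM under DMSO (6.55e-05 to 0.0144). Intervals and limits cover counting error only. On days 1, 3 and 4 the RXRi sums were 18, 24 and 22 reads and the DMSO sums 7, 16 and 10 reads, and the Poisson intervals overlapped. All 4 RXRi libraries of day 5 (7 to 19 reads) lay above all DMSO libraries (0 or 1 read). No test was made of Nlrc5, and all 12 neighbouring pairs in its order overlapped.

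Set directly against RXRi over the mean of the 4 days, atRA called 3 members higher and 2 lower, where 75% of all genes were called. B2m was higher by 1.20 ± 0.06 (adjusted p = 2.8e-12), Psmb8 by 0.90 ± 0.11 (adjusted p = 8.2e-07) and Psmb9 by 0.87 ± 0.10 (adjusted p = 3.3e-07). H2-D1 differed by -0.44 ± 0.04 (adjusted p = 1.4e-08) and Tapbp by -0.36 ± 0.08 (adjusted p = 0.00053), both lower under atRA. H2-K1 differed by -0.08 ± 0.06 (95% interval -0.20 to 0.05, adjusted p = 0.27), Tap1 by -0.03 ± 0.05 and Tap2 by 0.03 ± 0.06. For B2m, all 4 atRA group means (224 to 579 RPKM) lay above all RXRi group means (131 to 183 RPKM).

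Other genes of the pathway were read from lists chosen with earlier results of these data known. Over the mean of days, 30.1% of all genes were called higher and 42.8% lower under RXRi, 73% in all, and 7.98% higher and 15% lower under atRA. The RXRi counts of the lists below are read against those shares, and a list with most genes called in both directions does not stand apart by its count. Of 16 other class I heavy chain genes tested, 5 were higher and 8 lower under RXRi, near the 73% called over all genes (median -0.09, against -0.07 over all genes). The non-classical H2-T23 (1.17 ± 0.06, adjusted p = 2.4e-11) and H2-T22 (0.79 ± 0.05, adjusted p = 1.4e-10) rose with H2-D1. H2-T3, the thymus leukaemia antigen of intestinal epithelium, fell by 2.60 (adjusted p = 1.6e-11), and Fcgrt, the neonatal Fc receptor that pairs with β2-microglobulin, fell by 2.04 (adjusted p = 1.3e-10). On day 5 Fcgrt was 0.022 to 0.051 RPKM in RXRi libraries, against 6.35 to 10.8 RPKM in DMSO libraries. Under atRA 8 of the 16 were higher and 1 lower (median 0.14, against -0.04), led by Fcgrt (1.21 ± 0.12, adjusted p = 1.6e-06).

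Of 17 other genes for peptide supply and loading, 2 were higher and 10 lower under RXRi, again near the 73% over all genes (median -0.25, against -0.07 over all genes). Erap1, the aminopeptidase that trims peptides in the endoplasmic reticulum, fell by 1.53 (adjusted p = 4.9e-14) and the cytosolic aminopeptidase Lap3 fell by 0.95 (adjusted p = 7.8e-13). The chaperone Canx fell by 0.49 (adjusted p = 6.3e-09). Under atRA 5 were higher and 1 lower (median 0.11, against -0.04), among them the proteasome activator subunits Psme2 (0.35 ± 0.07, adjusted p = 0.00076) and Psme1 (0.27 ± 0.05, adjusted p = 0.00094).

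Of 19 genes of interferon signalling, 10 were higher and 6 lower under RXRi, against 30.1% and 42.8% of all genes (median 0.22, against -0.07). The transcription factors Irf8 and Irf1 fell by 2.38 (adjusted p = 2.1e-14) and 0.82 (adjusted p = 1.5e-10), while the inhibitor Socs1 rose by 1.08 ± 0.08 (adjusted p = 4.0e-09). Irf8 was 0.11 to 0.21 RPKM in RXRi libraries on day 5, against 6.41 to 9.32 RPKM in DMSO libraries. Under atRA 3 were higher and 2 lower of 19 (median -0.04, as over all genes), with Irf1 at 0.52 ± 0.05 (adjusted p = 7.9e-07). Irf1 on day 5 was 24.0 ± 0.25 RPKM in atRA organoids and 12.9 ± 0.25 RPKM in DMSO organoids (SD, n = 2 cultures each). Of 42 interferon-stimulated genes 23 were tested, of which 6 were higher and 7 lower under RXRi (median 0.09) and 5 higher and 0 lower under atRA (median 0.10). At an unadjusted p below 0.05, 1 was lower under atRA. The GTPase Irgm1 fell by 1.10 under RXRi (adjusted p = 3.6e-12).

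Of 14 genes of the MHC class II pathway 8 were tested, and 7 of these were lower and 0 higher under RXRi (median -0.42, against -0.07 over all genes). The list also holds Ctss, Ifi30, Rfx5, Rfxank and Rfxap, which do not encode class II molecules. Cathepsin S (Ctss) fell by 2.74 (adjusted p = 2.9e-16) and the thiol reductase Ifi30 fell by 1.53 (adjusted p = 3.2e-12). Under atRA Ctss was the 1 gene of this list called, at 0.49 ± 0.06 (adjusted p = 2.1e-05). Of 12 NF-kB genes tested, 6 were higher and 5 lower under RXRi (median 0.28), with Nfkb2 at 0.81 ± 0.09 (adjusted p = 4.6e-07) and Nfkb1 at -0.56 ± 0.05 (adjusted p = 2.1e-08). Under atRA 1 was higher and 4 lower (median -0.16), with the chemokine Ccl20 at -0.93 ± 0.10 (adjusted p = 3.6e-06).

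Cell type markers moved with these changes, and their part in them was not tested. Over the mean of days, 30.1% of all genes were called higher and 42.8% lower under RXRi (median -0.07). Under atRA 7.98% of all genes were higher and 15% lower (median -0.04). Under RXRi over the mean of days, 9 of 10 enterocyte markers were lower and 0 higher (median -3.98), 6 of 6 Paneth cell markers were lower (median -4.21) and 5 of 6 stem cell markers were lower (median -2.27). All 8 tested markers of fetal-like epithelium were higher (median 2.49) and all 8 proliferation markers were lower (median -0.66). Under atRA 8 of 10 enterocyte markers were higher (median 1.23) and 6 of 8 fetal-like markers were lower (median -1.41). On day 5 the Paneth cell markers summed to 5181 to 8006 RPKM in atRA libraries and 3418.5 to 4894 RPKM in DMSO libraries. Stem cell sums (227 to 322 and 133 to 401 RPKM) and proliferation sums (341 to 411 and 298 to 397 RPKM) overlapped. In DMSO libraries of day 0 the Paneth and proliferation sums were 2856 to 3970 and 510 to 545 RPKM. In DMSO organoids on day 5 against day 0, all 10 enterocyte markers were higher (median 3.89), as were the members B2m and H2-D1. All 8 fetal-like markers were also higher (median 3.12) and all 6 stem cell markers lower (median -2.36). Over all genes, 18.7% were called higher and 51.1% lower on day 5 against day 0 (median -0.31). The 10 epithelial markers summed to 19672 to 20889 RPKM in RXRi libraries on day 5, 3632 to 5536 RPKM in atRA libraries and 4978 to 5886 RPKM in DMSO libraries. The 11 macrophage and dendritic cell markers summed to 8.18 to 9.04 RPKM under RXRi, 4.76 to 7.15 RPKM under atRA and 3.87 to 8.73 RPKM under DMSO. The 11 T and B cell markers summed to 0.0139 to 0.130 RPKM under RXRi, 0.515 to 1.68 RPKM under atRA and 0.0630 to 0.718 RPKM under DMSO.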

How the data were processed

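RNA from pooled wells of intestinal organoids was made into TruSeq mRNA libraries, per the labels' protocols. The submitters' processing notes name mm10 as the build, STAR 2.5.2b and bcl2fastq 2.17. For the counting tool, the annotation and strand, the entry is: not given in the sources used here. The authors deposited RPKM per gene in 1 table, and no counts. RPKM is relative to gene length and library total, so a rise of a few abundant genes lowers the rest.

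From these values whole reads were recovered for 19707 of 19708 genes above 0 (99.9949%), each value lying within 0.001 read of a whole number. The reads gave library depth, the reads behind each value and a floor of 3 reads per library or group sum. Of 52 libraries 51 were used, and 0 of 1326 pairs held identical values.

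Duplicate libraries of a culture were averaged on log2(RPKM + 1), giving 26 culture means. A gene was kept where 4 or more libraries reached 1 RPKM (12443 genes). limma 3.58.1 in R 4.3.3, with trend and robust moderation, was fitted over all 13 groups with 13 residual degrees of freedom, and p-values were Benjamini-Hochberg adjusted over all genes tested. The script was tested on simulated data. Errors beside log2 differences are standard errors, and those beside means are SDs over 2 cultures. Deviations from the group means correlated between cultures of the same number with r between -0.317 and 0.759 (median 0.149, 78 pairs of groups). In 47 of these pairs r was above 0.1, and for the second number the median r was 0.0069. The main fit did not pair the samples by number, so it leaves out any deviation shared by cultures of the same number. The replicate block takes this deviation in. With the block, 11 calls of a gene in a comparison were added and 0 ended. Libraries of the same first number differed less than those of the same second number (median SD of the log2 difference 0.173 and 0.255), which is the reading used here. Ratios, orders, motif matches and shared sequence were computed with pandas 2.3.3, numpy 2.4.6 and scipy 1.17.1, and figures with matplotlib 3.10.9.

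All 9 members are described, and each further list names up to 4 genes with the smallest p in a comparison. The members and lists were chosen with earlier results of these data known. Alternatives were the pseudocount, the filter, the scaling, the replicate block, the reading of the sample numbers, the groups fitted, the shallow library, each culture or library left out and limma-voom on recovered reads.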

Additional observations from a re-analysis of the deposited data

Results flagged for a closer look

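Of 107 groups of 4 libraries checked, 8 had a library standing apart from the other 3, since its gap to the nearest library, as a share of the group's range, passed Dixon's 95% critical value; chance gives about 1 in 20. In DMSO organoids on day 4, the lowest H2-D1 library was at 130 RPKM, with the next at 151 RPKM, and the highest B2m library was at 373 RPKM, with the next at 315 RPKM. Under RXRi the lowest Tap2 library on day 3 was at 3.02 RPKM, the highest Tap2 library on day 4 at 5.88 RPKM and the highest Psmb8 library on day 4 at 0.603 RPKM. The highest Psmb9 library in DMSO on day 3 was at 2.78 RPKM. For Nlrc5, 1 library of atRA on day 1 was at 0 with the next at 0.0308 RPKM, and 1 library of DMSO on day 5 was at 0.0104 RPKM with the other libraries at 0.

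The difference between RXRi and DMSO on day 5 differed from that on day 1 for 4 genes, by 0.61 for H2-D1, -1.08 for B2m, 0.75 for Tap1 and 0.63 for Tapbp on the log2 scale. The adjusted p from limma was 0.00026, 4.2e-05, 0.00037 and 0.034 in that order.

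The day 1 DMSO library that was left out held 9 reads of H2-K1 (314 RPKM) and 4 reads of H2-D1 (171 RPKM), above the floor of 3 reads.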

How the results depend on the processing

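The RXRi calls of H2-D1 and B2m on days 3, 4 and 5 and over the mean held in every fit without 1 culture or library (76 such fits in all), and limma-voom left all 144 results of a gene in a comparison on the same side of the threshold. A culture left alone in its group was assumed to vary like the others. Without 1 culture or library, the number of members called ranged from 0 to 5 for atRA on day 4, 1 to 4 for atRA on day 5, 0 to 2 for its change between days 1 and 5, 1 to 4 for RXRi on day 1, 1 to 3 for DMSO day 1 against day 0, 1 to 4 for day 4 against day 3 and 2 to 4 for day 5 against day 0. With the culture as a replicate block, RXRi on day 1 had 5 calls and DMSO day 5 against day 0 had 5; beyond the calls named in the report it changed none. Reading the second number of the title as the culture gave 1 call for atRA on day 3, 6 on day 5 and 4 for its change between days, 8 for RXRi on day 1, and in DMSO 4 for day 3 against day 1, 4 for day 5 against day 4 and 6 for day 5 against day 0. Keeping the shallow library gave 1 call for atRA on day 4, 2, 3 and 4 for RXRi on days 3, 4 and 5, 2 for its change between days, and in DMSO 0 for day 3 against day 1 and 1 for day 4 against day 3. It ended 19 calls of a gene in a comparison, and Tapbp reversed, with a change of the RXRi difference of -0.51 (adjusted p = 0.53). Fitting only the groups compared gave 0 calls for atRA on day 4, 0 on day 5, and in DMSO 2 for day 3 against day 1, 1 for day 4 against day 3 and 0 for day 5 against day 4. Median-of-ratios scaling gave 1 call for DMSO day 1 against day 0, 5 for day 4 against day 3 and 7 for day 5 against day 0, where Tap1 turned to 0.26 (adjusted p = 0.029). A pseudocount of 0.1 RPKM added Tap1 for RXRi on day 1 (-0.41, adjusted p = 0.040) and Tap2 for its change between days (0.59, adjusted p = 0.044) and ended Tap2 on day 3 (adjusted p = 0.052). Library totals without the highest genes gave 4 for day 5 against day 0. Each setting may also change the calls over all genes, and those shares are not given here. The counts show only how the members' calls vary with the setting, and the cause of these changes was not tested. The 2 count-based tests planned on recovered reads were not run, since the deposited unit is RPKM. Psmb8, Psmb9 and Nlrc5 rest on few reads, which limits their precision.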

Other observations

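Over the 26 culture means of log2(RPKM + 1), the members did not vary alike. Pearson's r was 0.90 between H2-K1 and Tapbp, 0.76 between H2-K1 and H2-D1 and 0.77 between B2m and Psmb9. It was -0.31 between B2m and H2-D1 and -0.08 between Psmb9 and Tap1, the pair read away from each other. The points share days, treatments and depth, so these are descriptions.

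Among other genes, those whose pattern was most like the mean of the 8 members were Gm11127 (r = 0.92), Paqr7 (0.90) and Gm7030 (0.88), with the class I gene H2-Q4 (0.87) and Parp14 (0.86) among the first 10. B2m was most like Fbp1 (0.97), Ly75 (0.97) and Guca2b (0.97). H2-D1 was most like H2-L (0.95), Actn4 (0.95) and Atp6v0e (0.94), and H2-K1 most like Paqr7 (0.96), H2-Q8 (0.95) and Gm7030 (0.94). Tapbp was most like H2-T23 (0.93), Tap2 most like Uba7 (0.94), Tap1 most like Mknk2 (0.84), Psmb8 most like Cyp4b1-ps2 (0.92) and Psmb9 most like Fbp2 (0.88). H2-L, H2-Q8 and other class I genes may share reads with the heavy chains.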
